A study of Mus musculus with 17 samples.

Results

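The replication-dependent histone genes code for the linker histone H1 and the core histones H2A, H2B, H3 and H4 that package newly copied DNA. The set was taken by name: every protein-coding gene of GENCODE M21 (mouse build GRCm38) whose symbol starts with Hist1h, Hist2h, Hist3h or Hist4h and whose Ensembl ID is a row of both count tables. That gave 64 genes of the 43430 rows, namely 6 for H1, 18 for H2A, 15 for H2B, 12 for H3 and 13 for H4. Of the 70 gene models with such a symbol, 3 pseudogenes were left out and 3 coding models (Hist1h2bh, Hist1h2bm and Hist2h2bb) had no row. The largest group, 52 genes, lies on chromosome 13 between positions 21715763 and 23934851. Another 9 genes lie on chromosome 3, 2 on chromosome 11 and 1 on chromosome 6.

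A dividing cell makes these histones during S phase, when the DNA is copied, and a resting cell makes few of them. Their messenger RNAs are unusual in that they end in a short stem-loop, bound by the protein SLBP, in place of a poly(A) tail. A library made by capturing poly(A) tails therefore misses most of them, while a library made from total RNA can count them. Alveolar type 2 (AT2) cells secrete surfactant and are the progenitor cells of the alveolar lining, which divide after lung injury.

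The study sequenced RNA of flow-sorted AT2 cells from C57BL/6J mice aged 2 months, in 17 libraries and 2 count tables. The total-RNA table holds 4 libraries from naive mice and 5 from mice taken 14 days after bleomycin, a DNA-damaging antibiotic that injures the lung, each made from 0.35 ng of RNA. The titles of all of these 9 libraries also carry the word saline. The poly(A) table holds 4 libraries from mice given vehicle and 4 from mice given ISRIB, a small molecule that blocks the integrated stress response, taken 24 h later and made from 3 ng of RNA. The labels give no dose, and they do not say that each library came from its own animal, so p-values measure the spread between these libraries, which may be technical in part.

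Total counts ran from 3295257 to 6333166 per library in the total-RNA table, of which 20.84% to 31.86% fell on ribosomal RNA gene models, and from 10493574 to 15727139 in the poly(A) table. Levels below are in CPM, counts scaled by the total of all counts in a library. The summed level of 10 AT2 marker genes was 79800 to 82000 CPM in naive libraries and 49000 to 90400 CPM after bleomycin. Bleomycin 2 stood apart in histone RNA, so summed levels and calls are given with and without it. Among markers of other cells, 7 fibroblast genes summed to 3.88 to 9.1 CPM in naive libraries and 17.8 to 120 CPM after bleomycin, highest in bleomycin 2, with Lum at 0 throughout. The list of 10 macrophage genes summed to 16.1 to 25.2 CPM in naive and 43.1 to 74.2 CPM after bleomycin, with Marco and C1qa at 0 in all 9 libraries. Of these 10 genes 3 had enough counts to be tested, and Cd14 alone was called higher. Genes at 0 in every library of a group numbered 2 in naive and 5 after bleomycin. The 3 general leukocyte genes stayed at or under 1.7 CPM and the 6 lymphocyte genes at or under 0.91 CPM, with Cd3d and Ms4a1 at 0. The 6 endothelial genes summed to 15.8 to 24.0 CPM in naive and 16.5 to 59.7 CPM after bleomycin, the 5 airway genes to 371 to 763 and 405 to 772 CPM, and the 8 genes of alveolar type 1 cells to 1060 to 1280 and 1880 to 2230 CPM. In the edgeR test described below, all 3 tested fibroblast genes (Col1a1, Col1a2 and Col3a1) and 6 of the 8 alveolar type 1 genes were called higher. So were Cdh5 of 4 tested endothelial genes and Foxj1 of 3 tested airway genes. In these lists 0 genes were called lower. Over all genes tested, 11.2% were called higher and 9.31% lower. With a naive sum as low as 3.88 CPM, the fibroblast genes could not all be tested on naive counts alone. The part of these other cells in the results below was not tested.

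The stem-loop is shown first because it is the hallmark of these messages. It was found after the stop codon in 42 of the 64 members, or 42 of the 50 members whose annotated transcript runs at least 20 bases past the stop codon, against 9 of 55380 other annotated genes (0.016%). Only fixed patterns were searched, on the transcript strand: GGCTCT with AGAGCC, or GGNCCT with AGGNCC, on either side of the loop TTTN, so a stem-loop of other letters would be missed. The 6 versions found follow, with the paired stem in capitals and the loop in lower case.
In 24 members, such as Hist1h1c, Hist1h1d and Hist1h1e: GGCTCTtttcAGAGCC
In 6 members, such as Hist1h2bb, Hist1h3e and Hist1h3f: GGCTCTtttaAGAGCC
In Hist2h2ac alone: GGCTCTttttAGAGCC
In 7 members, such as Hist1h4d, Hist1h4h and Hist4h4: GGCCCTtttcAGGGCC
In Hist1h4i and Hist2h4: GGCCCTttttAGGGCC
In Hist1h4b and Hist1h4j: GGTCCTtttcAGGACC
The versions divided by histone. All 31 stem-loops of H1, H2A, H2B and H3 members had the GGCTCT stem, and all 11 of H4 members had another stem. Of the members without the motif, 14 had fewer than 20 annotated bases after the stop codon in which it could lie.

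The comparison of bleomycin with naive libraries asks how much histone message AT2 cells held 14 days after injury. Summed over all 64 members, the level was 262.5, 246.9, 260.6 and 241.8 CPM in naive libraries 1 to 4, and 339.7, 768.4, 347.2, 343.4 and 388.4 CPM in bleomycin libraries 1 to 5. The lowest bleomycin value exceeded the highest naive value, and bleomycin 2 lay far above the other 4. The mean was 253.0 ± 10.2 CPM (SD, n = 4) in naive and 437.4 ± 186.1 CPM (SD, n = 5) after bleomycin, 1.73-fold higher, and 354.6 ± 22.7 CPM (SD, n = 4) without bleomycin 2, 1.40-fold higher. In sorted cells measured in bulk, a larger share of cells with these messages and more message per cell cannot be told apart.

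Of the 64 members, 24 had enough counts to be tested (at least about 10 counts in 4 libraries). The edgeR quasi-likelihood test called 10 of them higher after bleomycin at an adjusted p under 0.05 and 0 lower, where over all 11223 genes tested 11.2% were called higher and 9.31% lower. The unadjusted p was under 0.05 in 17 members. The 24 included 9 that had fewer than 10 counts in each naive library and so passed through the bleomycin libraries, which ties being tested to being higher. Counts and medians over all 24 therefore carry no weight as support. Of the 15 members with 10 or more counts in at least 1 naive library, 3 were called (Hist1h1c, Hist1h1d and Hist1h3f). Their median log2 fold change was 0.16, and -0.15 without bleomycin 2, beside 0.0026 over all genes tested. In 3 of the 15 (Hist1h1c, Hist1h1d and Hist1h3e) the bleomycin libraries all exceeded the naive ones, where 10.4% of all genes tested did so, and in 0 they all lay below, where 9.35% did. Another 5 members that separated had fewer than 10 counts in each naive library. Of the 15, Hist1h3e (11, 13, 9 and 4 counts in naive 1 to 4) and Hist1h3f (7, 13, 5 and 6) did not pass on the naive libraries alone. Calls, medians and separations over the 15 are therefore also tied in part to the filter.

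**Figure D1:**
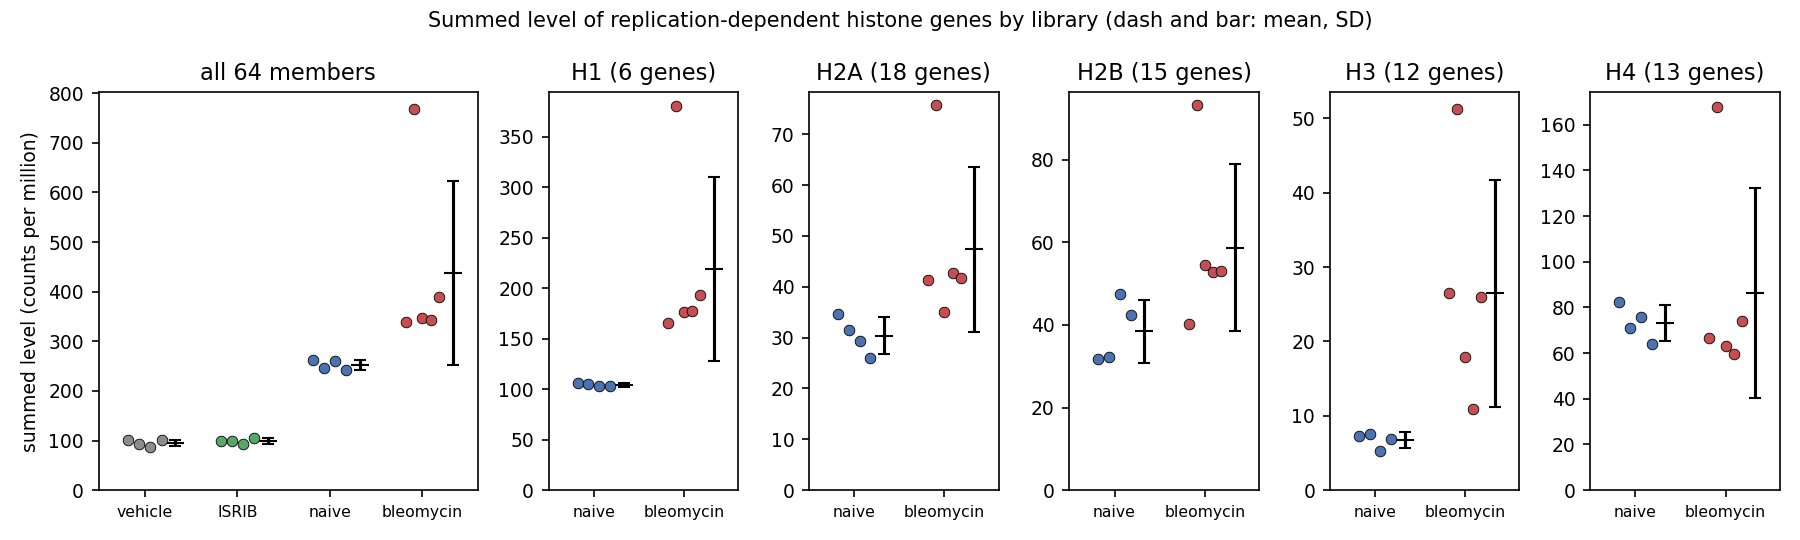
Summed level of the histone genes in each library, in CPM on axes that start at 0: all 64 members in the 4 groups (first panel), and each histone class in the total-RNA libraries. Points are libraries, and the dash and bar give the mean and SD. H1, H2A and H3 lie above the naive range in all 5 bleomycin libraries, while H4 does so in bleomycin 2 alone.

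By class, H3 had the highest ratio and H4 the lowest. H1 messages summed to 102.9 to 106.5 CPM in the 4 naive libraries and 165.1 to 380.2 CPM in the 5 bleomycin libraries, 2.10-fold higher in the mean and 1.71-fold without bleomycin 2. H2A went from 25.9 to 34.6 CPM in naive to 35.05 to 75.8 CPM, 1.56-fold and 1.32-fold without bleomycin 2, again with no overlap. H2B overlapped between the groups, at 31.9 to 47.4 CPM in naive and 40.1 to 93.3 CPM after bleomycin, 1.53-fold and 1.30-fold without bleomycin 2. H3 was the least abundant class in naive cells, at 5.24 to 7.52 CPM, and reached 10.9 to 51.2 CPM, 3.94-fold and 3.02-fold without bleomycin 2. H4 summed to 63.8 to 82.2 CPM in naive libraries and to 66.6, 167.9, 63.2, 59.4 and 74.1 CPM in bleomycin 1 to 5. Only bleomycin 2 exceeded the naive range of H4, and the mean ratio was 1.18 with it and 0.90 without it.

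Linker histone H1 binds the DNA between nucleosomes, and 4 of its 5 tested genes were called. Of these, Hist1h1a and Hist1h1b had under 10 counts in each naive library and passed the filter through the bleomycin libraries. Of the 3 that passed on naive counts, Hist1h1c and Hist1h1d were called and Hist1h1e was not. Hist1h1a, the H1.1 subtype, had 0.607, 0.645, 0.291 and 0.298 CPM in naive 1 to 4 (2, 3, 1 and 1 counts) and 6.69, 18.01, 6.16, 5.15 and 13.1 CPM in bleomycin 1 to 5 (26, 96, 39, 17 and 77 counts). The groups did not overlap, and its log2 fold change of 4.23 ± 0.57 (SE, edgeR adjusted p = 3.4e-05) was the highest of the 24 tested members. Hist1h1d, the H1.3 subtype, had 6.37, 9.02, 6.98 and 6.26 CPM in naive libraries and 27.0, 75.6, 19.9, 46.7 and 33.9 CPM after bleomycin. It rose by 2.41 ± 0.33 on the log2 scale (edgeR adjusted p = 5.0e-05), again with no overlap. Hist1h1b, the H1.5 subtype, had 0.607, 0, 0.873 and 0.895 CPM in naive libraries and 3.6, 10.3, 3.63, 3.64 and 2.88 CPM after bleomycin. Its lowest bleomycin library lay above its highest naive library, with a log2 fold change of 2.98 ± 0.70 (edgeR adjusted p = 0.0047).

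The H1 subtypes that were already abundant changed less. Hist1h1c, the H1.2 subtype, had 41.6, 47.05, 48.6 and 47.4 CPM in naive libraries and 69.7, 170.8, 78.5, 63.0 and 88.2 CPM after bleomycin, all above the naive range. It rose by 0.96 ± 0.22 on the log2 scale (edgeR adjusted p = 0.0045), and by 0.64 without bleomycin 2 (edgeR adjusted p = 0.0014, genes tested kept the same). Hist1h1e, the H1.4 subtype, had 56.4, 47.5, 46.25 and 48.0 CPM in naive libraries and 57.6, 104.3, 68.4, 59.1 and 54.6 CPM after bleomycin. The lowest bleomycin library overlapped the highest naive library, and the log2 fold change of 0.40 ± 0.17 did not pass the test (edgeR adjusted p = 0.11). The testis-expressed Hist1h1t had at most 6 counts in any library. Hist1h1a, Hist1h1b, Hist1h1c and Hist1h1d remained called under all 18 alternative fits, with adjusted p up to 0.0207, while Hist1h1e was called in 1 of 18, over an adjusted p range of 0.0458 to 0.323.

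The make-up of the H1 counts also differed between groups. Hist1h1c and Hist1h1e together held 91.8 ± 1.02% (SD, n = 4) of H1 counts in naive libraries and 75 ± 5.41% (SD, n = 5) after bleomycin, and the ranges, 90.3% to 92.8% and 68.8% to 83.1%, did not overlap. The share of Hist1h1d went from 6.87 ± 1.22% to 18.3 ± 5.48%, and that of Hist1h1a from 0.44 ± 0.178% to 4.39 ± 1.49%. The share of Hist1h1e was 47.5 ± 3.74% in naive libraries and 32.5 ± 4.7% after bleomycin. Bleomycin 2, with its high total, had shares of 19.9% for Hist1h1d and 27.4% for Hist1h1e. These shares are of counts and were not tested.

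**Figure D2:**
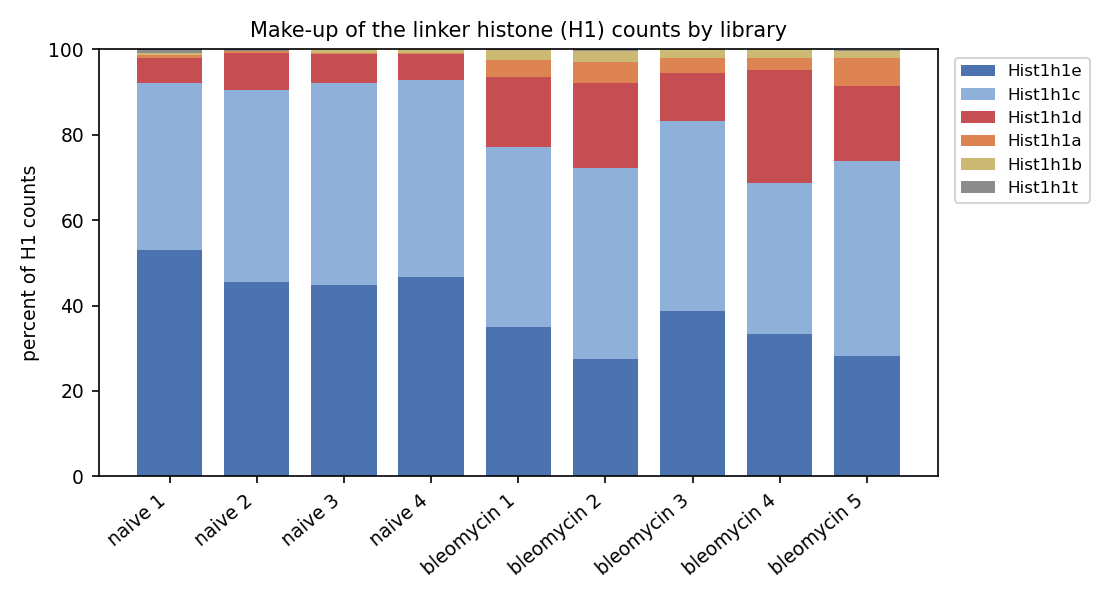
Percent of each total-RNA library's H1 counts that each H1 gene held, 4 naive and 5 bleomycin libraries. Hist1h1c and Hist1h1e hold at least 90.3% in each naive library and at most 83.1% in each bleomycin library, where Hist1h1d, Hist1h1a and Hist1h1b take up more.

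The promoters of the 5 tested H1 genes are shown because their genes moved by different amounts within 1 cluster. Each is the 150 bases before the RefSeq transcript start (GRCm38.p6), 5′ to 3′ on the gene's strand. They lie at chr13:23763518-23763667 (plus strand), chr13:21780626-21780775 (minus strand), chr13:23554882-23555031 (plus strand), chr13:23738657-23738806 (plus strand) and chr13:23622559-23622708 (minus strand). Capitals mark, on either strand, the TATA motif TATAAA and the CCAAT motif, as well as AAACACA, known from H1 promoters as the AC box and searched for after the data were seen.
Hist1h1a: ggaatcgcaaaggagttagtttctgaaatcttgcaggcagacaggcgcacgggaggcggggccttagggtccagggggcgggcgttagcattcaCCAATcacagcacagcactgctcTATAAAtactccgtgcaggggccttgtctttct
Hist1h1b: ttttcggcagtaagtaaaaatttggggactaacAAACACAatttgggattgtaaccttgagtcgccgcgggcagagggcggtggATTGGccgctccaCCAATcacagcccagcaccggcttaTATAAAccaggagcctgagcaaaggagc
Hist1h1d: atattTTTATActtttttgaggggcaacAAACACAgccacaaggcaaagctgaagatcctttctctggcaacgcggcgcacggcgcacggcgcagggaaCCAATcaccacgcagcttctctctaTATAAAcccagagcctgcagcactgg
Hist1h1c: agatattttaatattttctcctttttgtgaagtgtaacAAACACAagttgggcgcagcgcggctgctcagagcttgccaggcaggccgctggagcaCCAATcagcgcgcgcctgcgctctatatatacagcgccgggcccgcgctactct
Hist1h1e: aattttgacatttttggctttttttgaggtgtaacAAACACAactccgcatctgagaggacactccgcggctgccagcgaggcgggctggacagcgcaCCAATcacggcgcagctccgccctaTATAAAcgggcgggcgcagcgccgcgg
CCAAT was in all 5 windows. AAACACA was in Hist1h1b, Hist1h1c, Hist1h1d and Hist1h1e, and these letters were not in the window of Hist1h1a. TATAAA was in all but Hist1h1c. In windows from 250 bases before to 50 after the start, CCAAT was in 84.7% of the 59 members with a RefSeq promoter and in 37.4% of all 32851 promoters, TATAAA in 59.3% and 13.6%, and AAACACA in 5 of 6 H1 promoters and 7.2% of all promoters. CCAAT was in every H1, H2A, H2B and H3 promoter of the set but in only 3 of 12 H4 promoters. The octamer ATTTGCAT was in 7 of 18 H2A and 4 of 13 H2B promoters, in 0 of the others, and in 1.7% of all promoters. For Hist1h1d the RefSeq start lies 1770 bases inside the GENCODE gene model.

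H2A and H2B form dimers in the nucleosome, and 12 pairs of their genes stand head to head less than 1000 bases apart. Of the 18 H2A members 4 were tested and 2 called higher. Both called genes had under 10 counts in each naive library and passed the filter through the bleomycin libraries. Hist2h2ac and Hist3h2a, which passed on naive counts, were not called. Hist1h2ak had 0.304, 0.430, 0.291 and 0.895 CPM in naive libraries and 4.11, 7.69, 2.68, 8.49 and 5.77 CPM after bleomycin, with no overlap and a log2 fold change of 3.45 ± 0.61 (edgeR adjusted p = 0.00048). Hist1h2af had 0, 0.430, 0.291 and 0.895 CPM in naive libraries and 9.00, 8.82, 3.47, 2.73 and 5.43 CPM after bleomycin, also without overlap, a log2 fold change of 3.71 ± 0.68 (edgeR adjusted p = 0.00066). Neither was highest in bleomycin 2: Hist1h2ak peaked in bleomycin 4 and Hist1h2af in bleomycin 1. Each encodes a canonical H2A, and each gene is overlapped in part by a gene model on the other strand. The sources used here do not give the strand setting of the counting.

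Of the 15 H2B members 6 were tested and 2 called higher. Both called genes, and Hist1h2bg, had under 10 counts in each naive library and passed the filter through the bleomycin libraries. Hist1h2bc, Hist1h2be and Hist2h2be, which passed on naive counts, were not called. Hist1h2bn had 0, 0.430, 0.873 and 0.298 CPM in naive libraries and 2.57, 10.3, 3.16, 6.06 and 2.04 CPM after bleomycin, with no overlap and a log2 fold change of 3.42 ± 0.76 (edgeR adjusted p = 0.0031). Hist1h2bb had 1.52, 1.93, 2.62 and 0.596 CPM in naive libraries and 3.34, 14.6, 1.90, 4.24 and 6.28 CPM after bleomycin. Bleomycin 3 overlapped the naive range, and its log2 fold change of 1.77 ± 0.60 (edgeR adjusted p = 0.041) was called in 7 of 14 alternative fits, over an adjusted p range of 0.00868 to 0.198, and not without bleomycin 2. Hist1h2bc, at 14.5 ± 4.47 CPM (SD, n = 4) in naive and 22.6 ± 5.17 CPM (SD, n = 5) after bleomycin, had a log2 fold change of 0.59 ± 0.22 (edgeR adjusted p = 0.067) with overlapping groups. Hist1h2bg, at 1.12 on the log2 scale (edgeR adjusted p = 0.14), and Hist1h2be, at 0.45 (edgeR adjusted p = 0.46), did not pass either.

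Hist1h2ak and Hist1h2bn are themselves such a pair, 295 bases apart, and both were called higher. Both passed the filter through the bleomycin libraries, so their joint call carries no weight as support. Summed over libraries, they had 7 and 6 counts in naive and 136 and 117 after bleomycin. Their shared stretch is printed from the side of Hist1h2bn, chr13:21753926-21754075 (plus strand), with CCAAT in capitals on either strand.
Hist1h2bn: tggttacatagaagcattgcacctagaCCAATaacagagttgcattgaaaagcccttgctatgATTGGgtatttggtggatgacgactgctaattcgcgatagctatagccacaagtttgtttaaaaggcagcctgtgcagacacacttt
Other pairs were less even. Hist1h2an and its partner Hist1h2bp had 2 and 3 counts in naive and 66 and 8 after bleomycin, and Hist1h2ac and Hist1h2bc had 12 and 211 in naive and 62 and 580 after bleomycin. Hist1h2ah had 1 count in naive and 0 after bleomycin, where its partner Hist1h2bk had 0 and 24. No gene of the 4 other pairs with a count on chromosome 13 had more than 100 counts in a group, and the pairs Hist1h2bq with Hist1h2ao, Hist1h2ap with Hist1h2br and Hist1h2ba with Hist1h2aa had 0 counts in all 9 libraries. On chromosome 3, Hist2h2ac and Hist2h2be, 238 bases apart, are treated below.

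Histone H3 is, with H4, the core of the nucleosome, and 3 of its 12 members were tested and 2 called higher. Of these, Hist1h3b had under 10 counts in each naive library and passed the filter through the bleomycin libraries. Hist1h3e and Hist1h3f passed on naive counts, and only Hist1h3f of them was called. Hist1h3b had 0, 0.859, 0.291 and 1.79 CPM in naive libraries and 4.89, 15.8, 2.68, 0.909 and 6.11 CPM after bleomycin. Bleomycin 4 overlapped the naive range, and the log2 fold change was 2.94 ± 0.79 (edgeR adjusted p = 0.012), or 2.22 without bleomycin 2 and with the same genes tested (edgeR adjusted p = 0.040). Hist1h3f had 2.12, 2.79, 1.45 and 1.79 CPM in naive libraries and 6.69, 10.7, 3.32, 2.42 and 7.47 CPM after bleomycin. It overlapped in bleomycin 4 as well, and its log2 fold change of 1.49 ± 0.48 (edgeR adjusted p = 0.034) was called in 7 of 18 alternative fits, over an adjusted p range of 0.0111 to 0.131, and not without bleomycin 2. Hist1h3e had 3.34, 2.79, 2.62 and 1.19 CPM in naive libraries and 5.40, 5.63, 6.32, 5.76 and 6.11 CPM after bleomycin. Its groups did not overlap and its bleomycin libraries were nearly level, yet its log2 fold change of 1.146 ± 0.405 just missed the threshold (edgeR adjusted p = 0.0505).

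**Figure D3:**
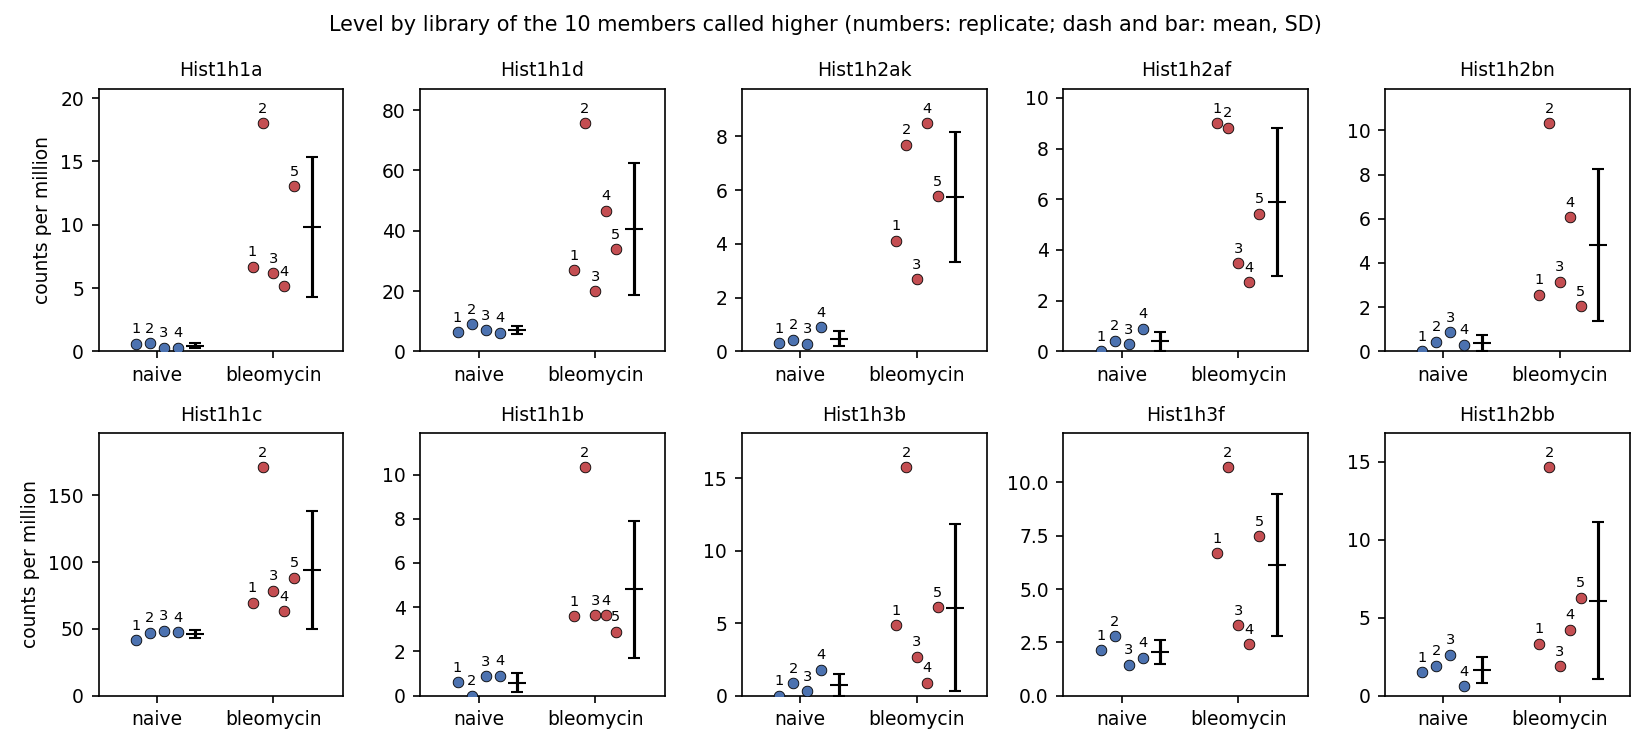
Level in each total-RNA library of the 10 members called higher, in CPM on axes that start at 0. Points are libraries with their replicate number, and the dash and bar give mean and SD. In 7 of the 10 genes no bleomycin library reaches down to the naive range, and bleomycin 2 is the highest library in 8 of the 10. All but Hist1h1c, Hist1h1d and Hist1h3f had under 10 counts in each naive library and passed the filter through the bleomycin libraries.

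None of the 6 tested members of H4 was called, although H4 pairs with H3 in the same nucleosome core. Hist1h4d, the most abundant of them, had 33.1, 34.6, 29.96 and 29.8 CPM in naive libraries and 30.6, 66.6, 32.2, 20.3 and 36.5 CPM after bleomycin. Bleomycin 2 lay far above the naive range and bleomycin 4 below it, and the log2 fold change was 0.16 ± 0.23 (edgeR adjusted p = 0.69), or -0.15 without bleomycin 2. Hist1h4h was at 12.7 ± 1.94 CPM (SD, n = 4) in naive and 14.5 ± 6.999 CPM (SD, n = 5) after bleomycin (edgeR adjusted p = 0.81), and its log2 fold change was 0.12, or -0.21 without bleomycin 2. Hist1h4c had a log2 fold change of -0.22 ± 0.47 (edgeR adjusted p = 0.79), or -0.80 without bleomycin 2 (edgeR adjusted p = 0.22). The low-count Hist1h4a had 1.79 ± 0.68 (edgeR adjusted p = 0.065). Of the H4 members below the filter, Hist1h4k and Hist1h4j were called higher in the fit without it and the others were not. In that fit 9.63% of all genes were called in either direction. Hist1h4k and Hist1h4j had 6 and 2 counts over the naive libraries and 100 and 51 over the bleomycin libraries.

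All 10 called members lie in the chromosome 13 cluster, as do all 9 that had under 10 counts in each naive library. Of the 10 members there with 10 or more counts in a naive library, 9 had a positive log2 fold change (median 0.52), and 6 did without bleomycin 2 (median 0.35), beside 50.22% of all genes tested. Hist1h3e and Hist1h3f, at 1.146 and 1.49, are among those 10 and passed the filter only with the bleomycin libraries. That count and median are therefore tied in part to the filter. The 5 tested members on chromosomes 3, 6 and 11 all had a negative one with and without bleomycin 2 (medians -0.71 and -0.72), and 0 passed the edgeR test with all libraries, with 2 at an unadjusted p under 0.05. The difference between these locations was not tested. Hist2h2ac, an H2A gene, had 26.7, 21.7, 22.4 and 14.3 CPM in naive libraries and 15.2, 33.8, 14.7, 14.5 and 18.8 CPM after bleomycin, overlapping groups with a log2 fold change of -0.21 ± 0.26 (edgeR adjusted p = 0.62). Its head-to-head neighbour Hist2h2be had 12.1, 10.3, 19.8 and 11.6 CPM in naive libraries and 3.6, 6.57, 11.2, 8.79 and 10.2 CPM after bleomycin, at -0.80 ± 0.31 (edgeR adjusted p = 0.074). Only bleomycin 3 reached into its naive range. Hist3h2a stood at -0.71 ± 0.44 (edgeR adjusted p = 0.27).

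The H4 genes outside the cluster depended on bleomycin 2. Hist4h4, on chromosome 6, had 17.0, 10.3, 12.8 and 11.6 CPM in naive libraries and 6.43, 22.3, 7.90, 5.15 and 6.96 CPM after bleomycin. Hist2h4, on chromosome 3, had 4.55, 4.08, 6.11 and 3.28 CPM in naive libraries and 2.57, 4.69, 1.11, 1.52 and 0.679 CPM after bleomycin. In both, the 4 other bleomycin libraries lay below every naive library. With all libraries the log2 fold changes were -0.47 ± 0.36 for Hist4h4 (edgeR adjusted p = 0.39) and -1.16 ± 0.53 for Hist2h4 (edgeR adjusted p = 0.13). Without bleomycin 2 and with the same genes tested, both were called lower, at -1.02 (edgeR adjusted p = 0.016) and -1.71 (edgeR adjusted p = 0.030). These 2 are named here because leaving out that library changed their call.

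**Figure D4:**
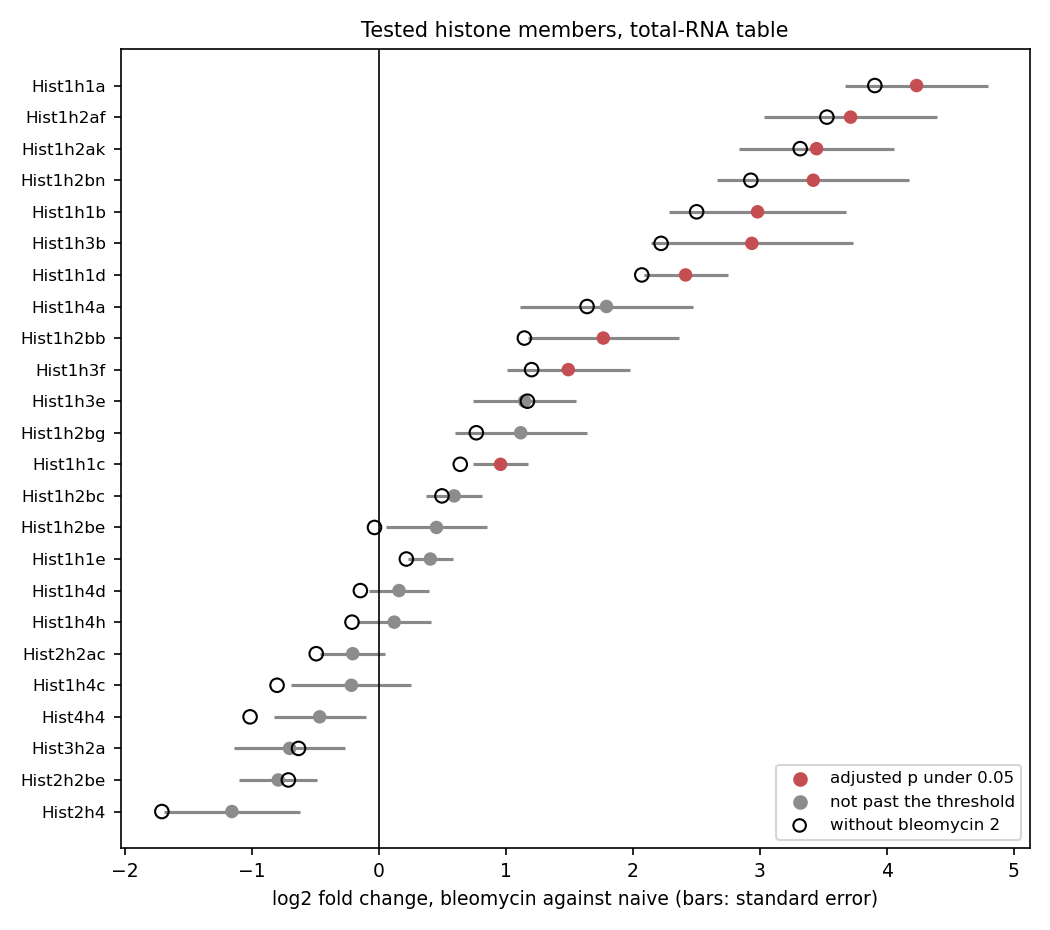
Log2 fold change between bleomycin and naive of the 24 tested members, with the standard error as a bar. Filled points use all libraries, red where the adjusted p is under 0.05, and open circles leave out bleomycin 2 with the same genes tested. The 10 red points are all in genes on chromosome 13, and the open circles of Hist4h4 and Hist2h4 lie further below 0.

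Bleomycin 2 carried the highest level among the bleomycin libraries in 19 of the 24 tested members and in 37 of the 55 members with any count. The same share over all genes is not given here, and 9 of the 24 had passed the filter through the bleomycin libraries. Leaving bleomycin 2 out, with the same genes tested, left 8 of the 10 called higher (all but Hist1h2bb and Hist1h3f) and 2 called lower. The same 2 also lost their call without any 1 of the naive libraries. With the count filter applied anew, only 17 members were tested without it and 4 were called higher, since 5 of the 10 were no longer tested. Its level of the proliferation marker Mki67, 312.4 CPM, was the highest of the 5 bleomycin libraries (155.5 to 264.1 CPM in the others), and its Top2a level, 84.6 CPM, lay within their range of 62.4 to 110.3 CPM. The summed level of 30 S-phase genes was 464.4 CPM in bleomycin 2 and 320.6 to 369.2 CPM in the others. Its total count, 5329381, and ribosomal share, 28.39%, lay within the range of the group. Whether any of these bears on its histone level was not tested.

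The 40 members below the count filter were mostly the short, near-identical copies. Their median exonic length was 483.5 bases, against 828 bases in tested members, and a median of 40.4% of their 75-base windows occurred in no other annotated gene, against 81.8%. A read from the other windows cannot be assigned to 1 gene, and the sources used here do not say how the counting treated such reads. The same holds in part for called members, with 29.5% such windows in Hist1h2af, 27.7% in Hist1h2bn and 41.4% in Hist1h3b, but 100% in Hist1h1a and Hist1h1b. Of the 40, 9 had 0 counts in all 9 libraries, among them the nearly identical Hist2h2aa1 and Hist2h2aa2, with 3.9% and 0.0% such windows, and the testis genes Hist1h2aa and Hist1h2ba.

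The remaining 31 were low in naive cells and higher after bleomycin as a group. They and the silent members summed to 7.56 to 10.01 CPM in naive libraries and 33.7, 77.3, 25.7, 35.8 and 26.5 CPM in bleomycin 1 to 5, 4.48-fold higher in the mean and 3.43-fold without bleomycin 2. In 29 of the 31 the level over all bleomycin libraries was higher than over all naive libraries, and in Hist1h2ah and Hist2h3c2 lower. By another measure, 38.9% of all 26897 genes had a positive log2 fold change in an edgeR fit without the count filter. Hist1h3d had 0, 0, 0 and 1 counts in naive libraries and 23, 27, 13, 2 and 18 after bleomycin, a CPM ratio of 49.4 (95% exact binomial interval 8.63 to 1976). Hist1h2bk had 0 counts in all 4 naive libraries and 7, 6, 5, 2 and 4 after bleomycin, at least 4.77-fold higher when 3 counts over the naive group are taken as the most that 0 allows. Such intervals and bounds cover counting error only, and these 2 genes were chosen after their values were seen.

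In the poly(A) table the same genes were low, as a group and almost all 1 by 1. Their summed level was 101.0, 93.7, 87.8 and 100.1 CPM in vehicle 1 to 4, against 241.8 to 262.5 CPM in the naive total-RNA libraries. Leaving ribosomal counts out of the totals gives means of 96.0 CPM in vehicle and 347.8 CPM in naive. These tables come from different kits and were scaled separately, so no test was made between them. From 12 to 16 of the 64 members had any count in a vehicle library, against 32 to 38 in a naive total-RNA library at a lower total count. Over all 8 poly(A) libraries 26 members had 0 counts and 27 had 1 to 10.

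Just 4 genes, Hist2h2be, Hist1h1c, Hist1h2bc and Hist3h2a, held 95.4% to 97.0% of the members' counts in the vehicle libraries, but 25.7% to 35.1% in the naive total-RNA libraries. Hist2h2be, an H2B gene, had 42.4, 39.3, 34.4 and 40.7 CPM in vehicle libraries, above each of its naive total-RNA values of 10.3 to 19.8 CPM. Hist1h2bc had 22.4, 22.3, 17.75 and 23.7 CPM and Hist3h2a 6.71, 7.27, 7.15 and 8.67 CPM, also higher than in total RNA in the mean. The 10 AT2 marker genes summed to 185000 to 188000 CPM in vehicle and 79800 to 82000 CPM in naive libraries. A ratio of 1 between the tables is therefore no neutral point. Hist1h1c had 25.8, 21.9, 25.8 and 22.4 CPM, with a total-RNA to poly(A) ratio of 1.92 (95% exact binomial interval 1.74 to 2.11). Hist1h2be, at 1.40 ± 0.46 CPM, was the fifth and last member of at least 1 CPM, and on chromosome 13 its model shares exonic bases with Hist1h1e on the same strand.

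The other members that were abundant in total RNA were close to 0 in poly(A) RNA. Hist1h1e, at 49.6 ± 4.66 CPM (SD, n = 4) in naive libraries, had 0.441, 0.538, 0.065 and 0.095 CPM in vehicle libraries, a ratio of 183 (95% exact binomial interval 107 to 346). Hist1h4d, at 31.9 ± 2.36 CPM (SD, n = 4) in naive, had a ratio of 194 (97.6 to 452), and Hist2h2ac, at 21.3 ± 5.14 CPM (SD, n = 4), a ratio of 343 (116 to 1674) from 3 counts in vehicle libraries. Hist1h1d, with 108 counts in naive libraries, had 0 in vehicle libraries, at least 118-fold higher in total RNA with 3 counts over the vehicle group as the bound. Hist1h1c and Hist1h1e thus stood side by side in total RNA, at 29.6 and 25.7 CPM per kilobase of exon in naive libraries, and at 15.4 and 0.148 in poly(A) RNA.

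Sequence at the transcript end went with this split in part. AATAAA or ATTAAA, the poly(A) signals searched for, lay in the last 40 annotated bases of 17 of the 64 members and of 4 of the 5 members with at least 1 CPM in vehicle libraries, Hist1h2bc being the exception. Hist2h2be and Hist1h2bc had long annotated ends, 2192 and 742 bases after the stop codon, with neither pattern of the stem-loop found. Hist1h1c, Hist3h2a and Hist1h2be had the stem-loop and ran on for 840, 1643 and 1861 bases beyond it. The signal was also in 2 of the 5 members with at least 10 CPM in naive and under 1 CPM in vehicle libraries, Hist1h4h and Hist4h4. These are annotated ends, and which ends these cells used was not measured here.

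**Figure D5:**
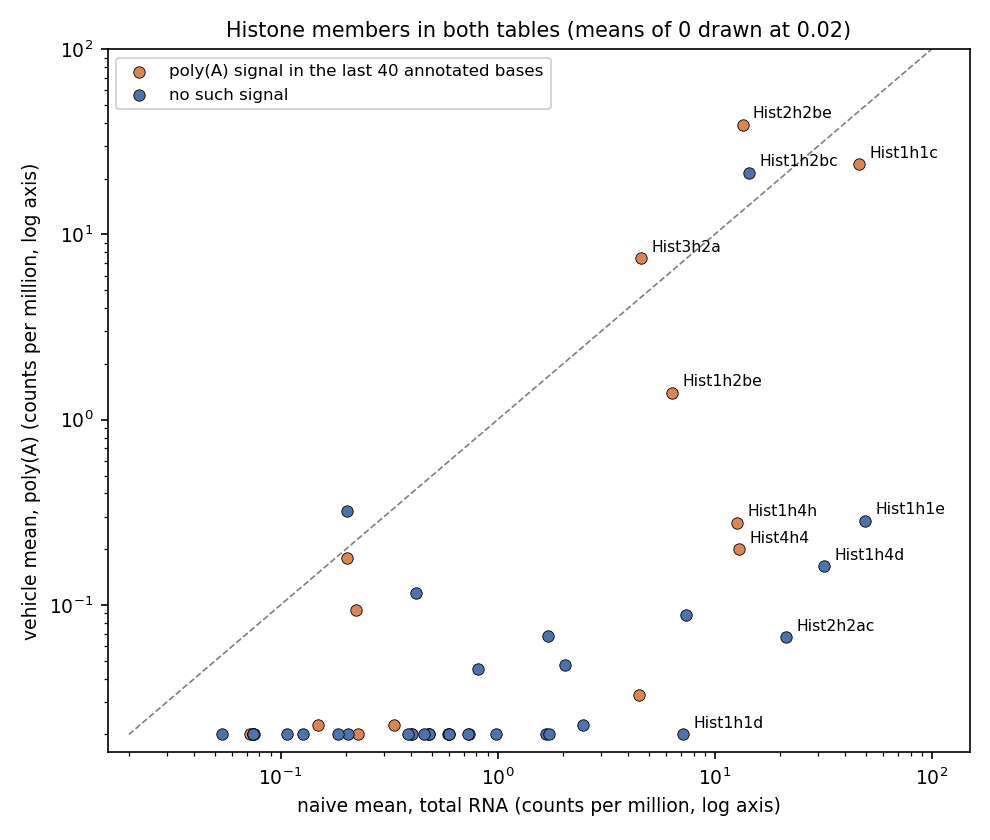
Mean level of each histone member in the 4 naive total-RNA libraries (horizontal) against the 4 vehicle poly(A) libraries (vertical), in CPM on log axes, with means of 0 drawn at the edge and equal levels on the dashed line. Orange marks genes with a poly(A) signal at the annotated end. Hist2h2be, Hist1h2bc and Hist3h2a lie above the line, and Hist1h1e, Hist1h4d and Hist2h2ac far below it.

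ISRIB was compared with vehicle in the poly(A) table, where only those 5 members could be tested. The summed level was 98.8, 99.8, 92.4 and 106.1 CPM in ISRIB 1 to 4, overlapping the vehicle range of 87.8 to 101.0 CPM, with a mean ratio of 1.04. The edgeR test called 0 of the 5 members higher and 0 lower, against 1.1% of 12054 genes in each direction, and 1 member, Hist3h2a, had an unadjusted p under 0.05. DESeq2 and limma-voom also called 0. After TMM scaling the groups of 0 members separated in either direction, against 4.26% of all genes tested for higher and 4.39% for lower. Hist3h2a had 11, 8.85, 8.94 and 9.37 CPM after ISRIB, all above its vehicle values before that scaling, with a log2 fold change of 0.35 ± 0.13 (edgeR adjusted p = 0.19), and Hist1h1c 23.6, 28.9, 19.65 and 33.4 CPM, at 0.12 ± 0.12 (edgeR adjusted p = 0.72). Hist2h2be stood at -0.06 ± 0.08 (edgeR adjusted p = 0.77), Hist1h2bc at -0.03 ± 0.09 (edgeR adjusted p = 0.92) and Hist1h2be at 0.30 ± 0.30 (edgeR adjusted p = 0.70). The 59 other members, at most 0.321 CPM on average in vehicle libraries, were below what this table can compare.

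Genes that work with these histones were taken from fixed lists. The protein SLBP, which binds the stem-loop, is made from Slbp, at 16.5 ± 1.44 CPM (SD, n = 4) in naive and 26.3 ± 5.74 CPM (SD, n = 5) after bleomycin, a log2 fold change of 0.61 ± 0.19 (edgeR adjusted p = 0.033). Of 14 tested genes of histone message processing, Slbp and the cleavage factor gene Cstf2 (0.65 ± 0.18, edgeR adjusted p = 0.016) rose and 0 fell, a share near the 11.2% of all genes tested that were called higher (9.31% lower), with a median of 0.17 on the log2 scale. Npat and Casp8ap2, cofactors of histone gene transcription, were not called. Among 15 histone chaperone genes 5 rose and 0 fell (median 0.24), beside the same 11.2% and 9.31%. They included Asf1b at 2.51 ± 0.61 (edgeR adjusted p = 0.0060), Chaf1a of the replication-coupled assembly factor at 1.65 ± 0.40 (edgeR adjusted p = 0.0068) and Tonsl at 0.54 ± 0.14 (edgeR adjusted p = 0.011). Asf1b had 7 counts over all naive libraries, and Chaf1a 2.09 CPM in its lowest naive library. Both passed the filter through the bleomycin libraries. The count and median of the chaperone list are therefore tied in part to the filter.

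Most replication-independent histone variants have ordinary poly(A) tails, and they are made outside S phase as well. Of 10 tested after bleomycin, 4 rose and 0 fell (median 0.38), where 11.2% of all genes were called higher and 9.31% lower. Of the 4, H1fx and Cenpa had 7 counts each over all naive libraries and passed the filter through the bleomycin libraries. The count and median of this list are therefore tied in part to the filter. H2afz (H2A.Z) went from 14.6 ± 2.53 CPM (SD, n = 4) to 40.4 ± 8.55 CPM (SD, n = 5), a log2 fold change of 1.39 ± 0.18 (edgeR adjusted p = 3.4e-05), H1fx changed by 3.10 ± 0.76 (edgeR adjusted p = 0.0062) and Cenpa, the centromeric H3, by 2.96 ± 0.77 (edgeR adjusted p = 0.0092). H3f3b, which makes the H3.3 protein, had 222.9 ± 19.4 CPM (SD, n = 4) in naive and 283.9 ± 59.5 CPM (SD, n = 5) after bleomycin and was not called (edgeR adjusted p = 0.15). In vehicle poly(A) libraries H3f3b stood at 500.4 ± 17.6 CPM and H2afz at 77.9 ± 2.62 CPM (SD, n = 4), both higher than in naive total RNA, the reverse of Hist1h1e and Hist1h4d.

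The genes of the cell cycle moved in the same libraries. Of 26 tested S-phase genes 15 rose after bleomycin and 0 fell (median 0.98), beside 11.2% and 9.31% of all genes. Those with the lowest p were Mcm3 of the replicative helicase at 2.30 ± 0.29 (edgeR adjusted p = 2.1e-05), the cyclin gene Ccna2 at 3.13 ± 0.42 (edgeR adjusted p = 4.0e-05) and Rrm2, a subunit of ribonucleotide reductase, at 3.09 ± 0.42 (edgeR adjusted p = 4.4e-05). Of 18 mitosis genes 17 rose and 0 fell (median 2.88), with Mki67 at 3.94 ± 0.27 (edgeR adjusted p = 7.1e-08), Prc1 at 1.97 ± 0.18 and Cenpf at 3.10 ± 0.29 (edgeR adjusted p = 1.0e-06 for each). The median of all genes tested was 0.0026. Ccna2, Rrm2, Ccne1 and E2f8 had 19, 16, 2 and 8 counts over all naive libraries, and the mitosis genes Aurka and Ube2c 7 and 9. The called S-phase genes Cdc45, Mcm3, Pole and Uhrf1 also fell short of the filter in the naive libraries. So did the called mitosis genes Birc5, Ccnb2, Cdc20, Cdk1, Kif11, Kif20a, Nusap1, Plk1 and Tpx2. Such genes passed the filter through the bleomycin libraries. The S-phase and mitosis counts and medians are therefore tied in part to the filter. After ISRIB 0 of the tested genes of the variant, processing, chaperone and mitosis lists were called, and of 27 tested S-phase genes 1, Mcm6, was lower, at 35.2 ± 2.82 CPM in vehicle and 27.4 ± 1.21 CPM after ISRIB (SD, n = 4 each; log2 fold change -0.37 ± 0.08, edgeR adjusted p = 0.016).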

How the data were processed

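The authors deposited raw read counts per Ensembl gene, whole numbers per library in 2 tables. Per the submitters' processing notes the tools were bcl2fastq 2.19.1, FastQC, Trimmomatic 0.36, STAR 2.6.0 and HTSeq 0.11.2, with build mm10; the sources used here do not give the strand setting, the annotation or the treatment of reads matching several genes. Members and gene lists were chosen with earlier results of these data known. Symbols, lengths and transcript ends came from GENCODE M21, promoters from RefSeq (GRCm38.p6). Counts were filtered (filterByExpr, minimum count 10, minimum total 15), TMM-scaled and tested with edgeR 4.0.16 quasi-likelihood in R 4.3.3, group as the only term, Benjamini-Hochberg over all genes tested, called at adjusted p under 0.05. The SE is the unshrunk log2 fold change over the root of F. CPM use all counts. Alternatives used DESeq2 1.42.0, limma 3.58.1, other scaling, no filter, GC and length offsets, a replicate block and each library left out. The procedure was tested on simulated data. Named were members called after bleomycin, the 5 of highest mean CPM in each table, and up to 3 called genes per list and direction; other members named were added after their values were seen.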

Additional observations from a re-analysis of the deposited data

Results flagged for a closer look

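A library was set apart from its group of 4 or 5 by the gap to its nearest neighbour relative to the group's range (above 0.829 for 4 and 0.71 for 5 libraries). Chance sets apart about 1 in 20 groups, and 58 pairs of group and value were examined. All 9 cases were the same library, bleomycin 2, each time the highest of its group: the summed level of all members (768.4 CPM), of H1 (380.2), H2A (75.8), H2B (93.3) and H4 (167.9), and the levels of Hist1h1c (170.8), Hist1h1b (10.3), Hist1h1e (104.3) and Hist2h2ac (33.8 CPM). The 9 values overlap, since the sum of all members contains the class sums. The H1 sum contains Hist1h1b, Hist1h1c and Hist1h1e, and the H2A sum contains Hist2h2ac. They are therefore not 9 separate cases. The summed level of H3 was not set apart, nor was any poly(A) library.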

How the results depend on the processing

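With all libraries 10 members were called higher and 0 lower after bleomycin. The count higher was 18 with no filter on low counts, where 55 members were tested and 9.63% of all 26897 genes were called in either direction. It was 4 to 12 when libraries were left out in turn, lowest without bleomycin 2 or bleomycin 5. In those 2 fits 5 of the 10 were no longer tested (8 were called higher in each case with the same genes tested). The count lower was 0 to 2 when libraries were left out, 2 of them without bleomycin 2. With other scaling, DESeq2, limma-voom or GC and length offsets it was 8 to 13 higher and 0 lower. Replicate numbers did not pair the libraries (same-number correlations of deviations from -0.039 to 0.047 after bleomycin and from -0.109 to 0.085 after ISRIB). A replicate block on the 8 libraries with shared numbers gave 4 higher and 1 lower (Hist2h2be), with or without GC and length offsets, on 17 tested members. It gave 0 calls after ISRIB, as did every other alternative.

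Members not past the threshold changed sign under some settings: Hist1h4d to -0.14 and Hist1h2be to -0.03 without bleomycin 2 (-0.15 and -0.04 with the same genes tested; up to 0.30 and 0.64 without other libraries), Hist1h4h from 0.12 to -0.21 without bleomycin 2, Hist2h2ac to 0.03 with GC and length offsets (0.06 with the replicate block too), and after ISRIB Hist1h1c to -0.01 without ISRIB 4 (range up to 0.22) and Hist1h2bc to 0.02 without vehicle 4 (range down to -0.12). The cause was not tested. The log2 ratio of summed levels after bleomycin, 0.79, ranged from 0.488 to 0.868 without single libraries, was 0.453 from medians of libraries and 0.687 over members with at least 50% of their windows unique in annotated transcripts; medians, unique windows and fixed gene sets were chosen after seeing the data. The same check against the genome was not run. Leaving ribosomal counts out raised the naive mean from 253.0 to 347.8 CPM. Most members had under 10 counts per naive library, which limits what low members can show.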
